A study of Homo sapiens with 6 samples.

Results

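The miR-183 cluster and 3 further miRNAs known from epithelia (miR-205-5p, miR-203 and miR-31-5p) were followed in the human mucinous ovarian cancer line RMUG-S-ip1 after an siRNA against PRKRA (siPRKRA) or a control siRNA. The members were taken by name, as every entry of the named miRNA list that begins with miR-182, miR-183, miR-96, miR-203, miR-205 or miR-31. This gave 6 of the 177 named miRNA rows, in a table of 800 miRNA rows. They are miR-183-5p, miR-182-5p, miR-96-5p, miR-205-5p, miR-203 and miR-31-5p. There were 3 siPRKRA libraries and 3 control siRNA libraries, and both groups went through the same lipid transfection with a medium change after 6 hours. Each library was made from 100 ng of total RNA and read with the nCounter assay, in which colour-coded reporters bound to single miRNA molecules are counted without amplification. The product of PRKRA is PACT, which binds double-stranded RNA and works with Dicer, the enzyme that cuts miRNA hairpins. How far PRKRA itself was silenced is not analysed here. The sources used here give neither the time of harvest nor the number of siRNA sequences. Nor do they say whether the 3 libraries of a group were separate cultures. The p-values therefore cover only the scatter among these libraries, which may be technical.

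The miRNAs miR-183, miR-96 and miR-182 lie together on 1 chromosome, are transcribed as 1 unit, and are known from sensory organs and from many carcinomas. miR-205 is typical of basal and squamous epithelium and represses the mesenchymal regulators ZEB1 and ZEB2. miR-203 drives the differentiation of skin epithelium by repressing the stem cell factor p63. miR-31 is a miRNA of skin and gut epithelium, and its locus lies near the tumour suppressor gene CDKN2A, with which it can be lost in tumours.

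All 6 members had a mature sequence in RefSeq (build GRCh38.p14). They are shown to compare the seeds, bases 2 to 8, which pair with target mRNAs and are printed in capitals. The entry called miR-203 in the files carries the older name of miR-203a-3p.
miR-183-5p: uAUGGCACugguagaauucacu
miR-182-5p: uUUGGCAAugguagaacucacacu
miR-96-5p: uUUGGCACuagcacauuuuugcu
miR-205-5p: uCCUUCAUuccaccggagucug
miR-203: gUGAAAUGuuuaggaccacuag
miR-31-5p: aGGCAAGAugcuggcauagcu

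The seeds of the cluster were close to each other but not the same. The seed of miR-96-5p matched that of miR-183-5p at 6 of 7 positions and that of miR-182-5p at 6 of 7, and the seeds of miR-183-5p and miR-182-5p matched at 5 of 7. Outside the seed, miR-183-5p and miR-182-5p were alike at 13 of 15 compared positions, whereas miR-183-5p and miR-96-5p were alike at 7 of 15. No seed was shared between 2 members, and at most 3 of 7 positions matched in any pair outside the cluster. Of the miRNA names on the named rows 149 matched a RefSeq mature sequence and 34 did not, and 0 of the 149 shared a seed with a member.

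The cluster lies on the minus strand of chromosome 7. The mature miR-183-5p lies at chr7:129774967-129774988, miR-96-5p at chr7:129774739-129774761 and miR-182-5p at chr7:129770447-129770470, so the starts of miR-183-5p and miR-96-5p are 228 bases apart and those of miR-183-5p and miR-182-5p 4520 bases. The other members come from 3 further chromosomes. miR-205-5p lies at chr1:209432166-209432187 on the plus strand, miR-203 at chr14:104117469-104117490 on the plus strand and miR-31-5p at chr9:21512158-21512178 on the minus strand. Since Dicer frees both arms of a hairpin, the hairpins of miR-205 and miR-203 are shown with the measured strand in capitals. The measured strand begins at base 34 of 110 in the first and at base 65 of 110 in the second, on the 5p and the 3p arm.
MIR205 hairpin: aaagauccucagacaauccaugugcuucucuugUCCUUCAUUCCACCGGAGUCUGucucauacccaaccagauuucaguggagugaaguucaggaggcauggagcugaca
MIR203A hairpin: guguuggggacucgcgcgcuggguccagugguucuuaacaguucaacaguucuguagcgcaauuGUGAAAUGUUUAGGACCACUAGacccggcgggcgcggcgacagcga

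The values are the deposited signal, that is counts above a background multiplied by 1 factor per library. The factors were 0.231, 1.09 and 0.469 in siPRKRA replicates 1, 2 and 3, and 1.496, 1.525 and 1.315 in control siRNA replicates 1, 2 and 3. A given signal therefore rests on the most counts in siPRKRA replicate 1 and on the fewest in the control libraries. Low values were set to a floor, the commonest value of a library, which was 1 to 1.09 in siPRKRA and 1.32 to 1.53 in control siRNA libraries. siPRKRA replicate 2 stood apart: its correlation with the other libraries across the tested miRNAs was 0.833 to 0.884, whereas siPRKRA replicates 1 and 3 correlated at 0.985. The members' differences between the groups are also given without it.

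The cells gave a high signal for miR-205-5p, a moderate one for the miR-183 cluster, a low one for miR-203 and none above the floor for miR-31-5p in 4 of the 6 libraries. The mean signal over the 6 libraries was 2616 for miR-205-5p, 93.7 for miR-182-5p, 82.1 for miR-183-5p, 62.7 for miR-96-5p and 26.5 for miR-203. miR-205-5p thus had 31.9 times the signal of miR-183-5p. Probes differ in how well they capture their miRNA, so this is an order of signal and not of molecules. miR-205-5p was above miR-182-5p, miR-96-5p above miR-203, and miR-203 above miR-31-5p in 6 of 6 libraries each. The neighbours within the cluster were not separated in every library: miR-182-5p was above miR-183-5p in 5 of 6, and miR-183-5p above miR-96-5p in 5 of 6.

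**Figure D1:**
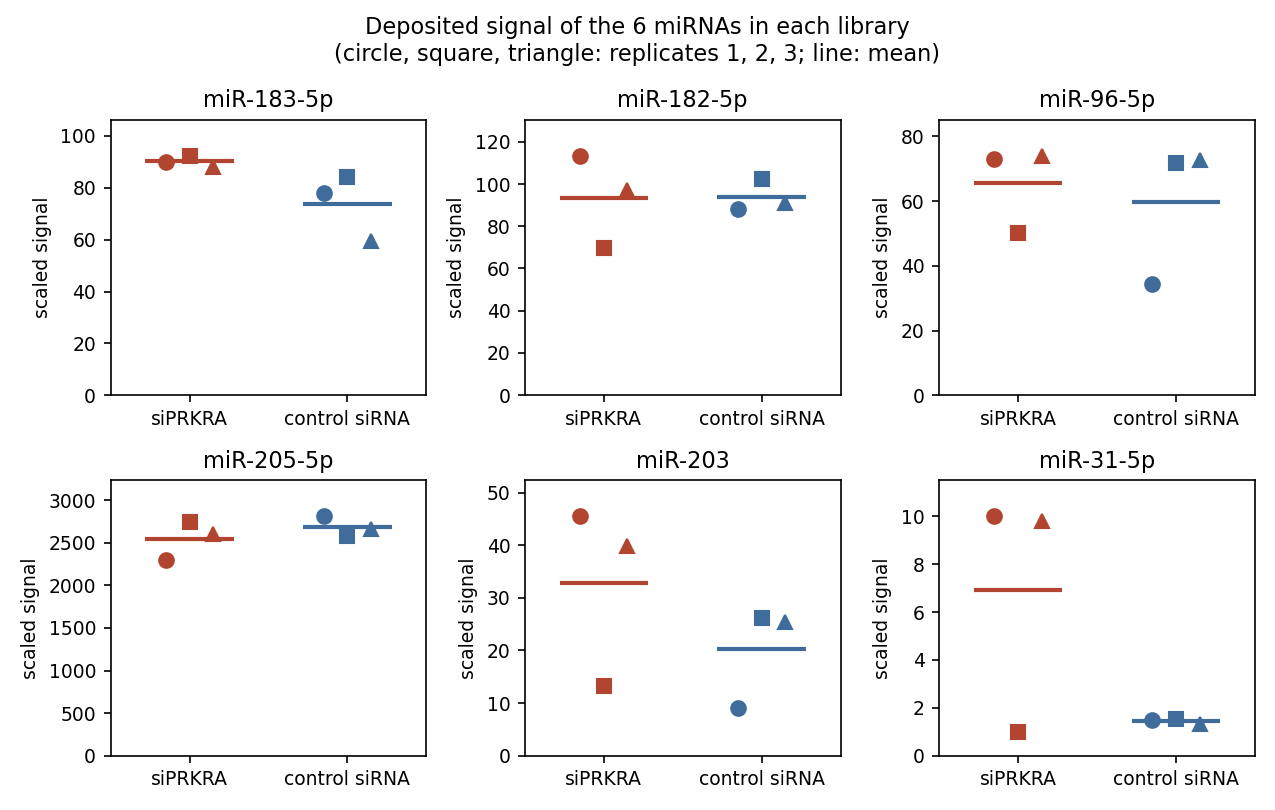
Deposited signal of each member (vertical axes, linear and starting at 0, different for each panel) in the 3 siPRKRA libraries (left of each panel) and the 3 control siRNA libraries (right), with a line at each group's mean. The groups do not overlap for miR-183-5p, at 88.2 or more in siPRKRA and 84.1 or less in control siRNA libraries, while miR-31-5p stands clear of the floor in siPRKRA replicates 1 and 3 only.

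Across the tested miRNAs the comparison of siPRKRA with control siRNA gave no call. limma was fitted to log2(signal + 1) over the 106 miRNAs with a signal of at least 30 in at least 3 libraries, and 0 of them (0%) had a Benjamini-Hochberg adjusted p under 0.05. At an unadjusted p under 0.05 there were 17 (16%), none of them a member. Of the 6 members 4 were among the tested miRNAs, namely miR-183-5p, miR-182-5p, miR-96-5p and miR-205-5p, while miR-203 reached 30 in 2 libraries and miR-31-5p in 0. Of the 4, 2 had a higher and 2 a lower estimate in siPRKRA, and their median log2 fold change was 0.079, against -0.061 over all 106. Fold changes on this scale are slightly smaller than those of the signal itself for low values.

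miR-183-5p, the first miRNA of the cluster's transcript, had signals of 90.1, 92.5 and 88.2 in siPRKRA libraries, against 77.9, 84.1 and 59.7 in control siRNA libraries. All 3 siPRKRA values lay above all control values, and control siRNA replicate 3 was the lowest of the 6. The means were 90.3 ± 2.14 in siPRKRA and 73.9 ± 12.7 in control siRNA libraries (SD, n = 3 each). The log2 fold change was 0.30 ± 0.18 (SE; 95% interval -0.15 to 0.75) and did not pass (limma adjusted p = 0.410). It was the only tested member whose groups did not overlap. Among all tested miRNAs the groups did not overlap for 27.4%, 12.3% being higher and 15.1% lower in siPRKRA, so 1 member in 4 is near the background. Without siPRKRA replicate 2 the log2 fold change was 0.28, and without control siRNA replicate 3 it was 0.16.

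miR-182-5p, which lies farthest along the cluster and represses the transcription factor FOXO1, had signals of 113, 69.7 and 97.1 in siPRKRA libraries, against 88.3, 102 and 91.2 in control siRNA libraries. The siPRKRA values spread on both sides of the control values, with siPRKRA replicate 2 the lowest and siPRKRA replicate 1 the highest of the 6. The means were 93.4 ± 22.1 in siPRKRA and 94.0 ± 7.42 in control siRNA libraries (SD, n = 3 each). The log2 fold change was -0.03 ± 0.22 (SE; 95% interval -0.56 to 0.49; limma adjusted p = 0.949). Its sign turned without siPRKRA replicate 2, at 0.16, and without control siRNA replicate 2, at 0.03.

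miR-96-5p, known for hearing loss when its seed is mutated, had signals of 73.1, 50.1 and 74.1 in siPRKRA libraries, against 34.5, 71.9 and 72.8 in control siRNA libraries. In each group 2 libraries lay close together and 1 was lower, siPRKRA replicate 2 and control siRNA replicate 1. The means were 65.8 ± 13.6 in siPRKRA and 59.7 ± 21.9 in control siRNA libraries (SD, n = 3 each). The log2 fold change of 0.19 ± 0.36 (SE; 95% interval -0.68 to 1.06; limma adjusted p = 0.813) became -0.16 without control siRNA replicate 1 and 0.37 without siPRKRA replicate 2. That control library held 23.1 counts above background for miR-96-5p, the fewest of the 6.

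Because the 3 cluster miRNAs come from 1 transcript, their ratios within a library show whether they moved apart, and these ratios do not depend on the library factor. The ratio of miR-183-5p to miR-182-5p was 0.794, 1.33 and 0.908 in siPRKRA libraries and 0.881, 0.821 and 0.654 in control siRNA libraries. On the log2 scale it averaged -0.021 ± 0.38 in siPRKRA and -0.36 ± 0.22 in control siRNA libraries (SD, n = 3 each), a difference of 0.34 (exact two-sided permutation p = 0.4). For miR-183-5p over miR-96-5p the difference was 0.11 and for miR-182-5p over miR-96-5p it was -0.23 (exact two-sided permutation p = 0.8 for both). Adjusted over the 3 ratios all p-values were 0.8, and 3 against 3 libraries cannot give an unadjusted p under 0.1. These differences moved when 1 library was left out, an alternative chosen after seeing the data. The highest miR-183-5p to miR-182-5p ratio was that of siPRKRA replicate 2, and without it the difference was 0.12. Without control siRNA replicate 3 that difference was 0.21. The highest ratio of miR-182-5p to miR-96-5p, 2.56, was that of control siRNA replicate 1, whereas the other 5 libraries lay between 1.25 and 1.55. Without that control library the difference turned to 0.082 for miR-182-5p over miR-96-5p and was 0.51 for miR-183-5p over miR-96-5p. The difference of miR-183-5p over miR-96-5p turned to -0.094 without siPRKRA replicate 2 and to -0.22 without control siRNA replicate 3. The summed signal of the cluster was 249 ± 33.4 in siPRKRA and 228 ± 29.01 in control siRNA libraries (SD, n = 3 each), with overlapping values and a gap of 21.8 that was smaller than either SD. Without siPRKRA replicate 2 the gap was 40.4. The means were then 268 ± 12.2 in siPRKRA (SD, n = 2) and 228 ± 29.01 in control siRNA libraries (SD, n = 3). The groups then barely missed overlapping, with 259.4 the lowest siPRKRA value and 258.3 the highest control value. How many tested miRNAs also ceased to overlap without that library was not counted. Without siPRKRA replicate 1 or control siRNA replicate 1 the gap was 8.22 or 8.39, and without control siRNA replicate 2 it was 37.2.

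**Figure D2:**
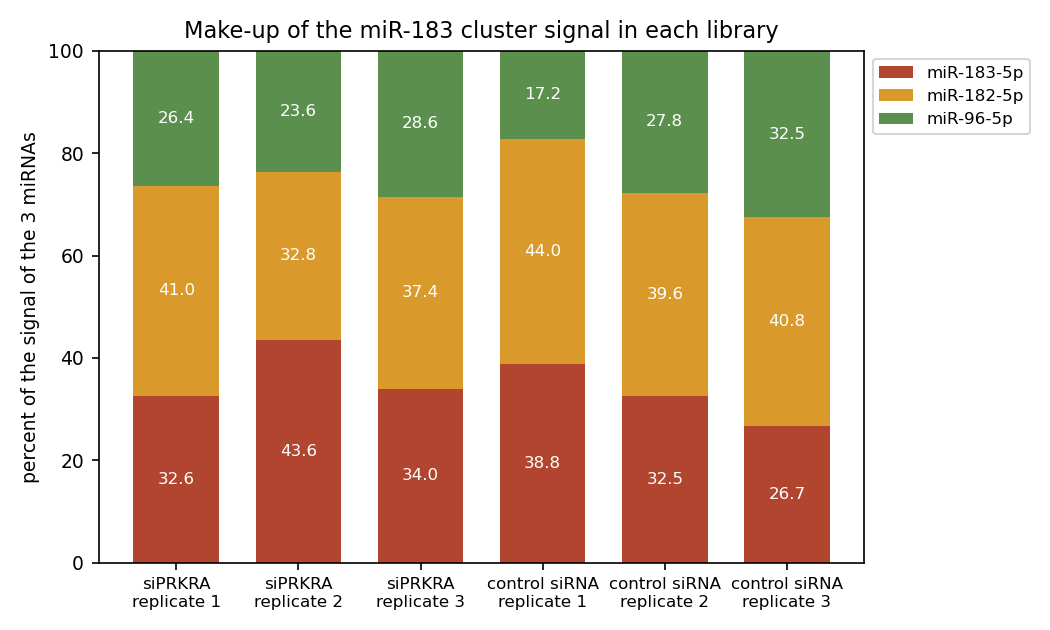
Percent of the summed cluster signal (vertical axis) held by miR-183-5p, miR-182-5p and miR-96-5p in each library, siPRKRA left and control siRNA right. miR-183-5p holds 32.6%, 43.6% and 34.0% in siPRKRA libraries and 38.8%, 32.5% and 26.7% in control siRNA libraries, so the ranges overlap.

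miR-205-5p was the most abundant member by signal and varied little in the deposited scaling. It had signals of 2293, 2745 and 2599 in siPRKRA libraries, against 2815, 2578 and 2668 in control siRNA libraries. The groups overlapped, with siPRKRA replicate 1 the lowest and control siRNA replicate 1 the highest. Among the 800 miRNA rows it ranked 10, 8 and 10 in siPRKRA libraries and 9, 10 and 10 in control siRNA libraries. The means were 2545 ± 231 in siPRKRA and 2687 ± 119 in control siRNA libraries (SD, n = 3 each). The log2 fold change was -0.08 ± 0.11 (SE; 95% interval -0.35 to 0.19; limma adjusted p = 0.727), and the interval on the linear scale ran from 0.783-fold to 1.14-fold. Without siPRKRA replicate 2 the log2 fold change was -0.14. Over all 6 libraries the SD of its log2 signal was 0.10, the 10th smallest of the 106 tested miRNAs, whose median SD was 0.33. As a percent of the geometric mean of the 5 mRNA rows it varied more. There it was at 141, 64.8 and 135 in siPRKRA libraries, against 171, 178 and 154 in control siRNA libraries. It rested on 9927, 2529 and 5537 counts above background in siPRKRA libraries and on 1882, 1690 and 2028 in control siRNA libraries, the most of any member.

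miR-203 was detected in every library at a low level. It had signals of 45.6, 13.2 and 39.8 in siPRKRA libraries, against 9.07, 26.1 and 25.5 in control siRNA libraries. siPRKRA replicates 1 and 3 lay above all control values, and siPRKRA replicate 2 lay between control siRNA replicate 1 and the other two. It was fitted over a wider set, the 198 miRNAs that exceeded the floor in 1 or more libraries, of which 0 (0%) were called at an adjusted p under 0.05 and 34 (17.2%) had an unadjusted p under 0.05. The log2 fold change was 0.63 ± 0.67 (SE; 95% interval -0.97 to 2.24; limma adjusted p = 0.620). Without siPRKRA replicate 2 it was 1.17 (limma adjusted p = 0.174), and without control siRNA replicate 1 it was 0.16.

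miR-31-5p was at the floor in all 3 control siRNA libraries and at or under it in siPRKRA replicate 2. Its signals were 10.01, 1 and 9.80 in siPRKRA libraries, against 1.50, 1.53 and 1.32 in control siRNA libraries. No fold is given against a group at the floor. Before the library factor, siPRKRA replicates 1 and 3 held 43.3 and 20.9 counts above background. By the factors of control siRNA replicates 1, 2 and 3, a signal of 10.01 would be 6.69, 6.56 and 7.61 such counts, so these libraries read that level with far fewer counts. In siPRKRA replicate 2 it would be 9.22 counts. Such counts can still stand above the floor: miR-203 did so with 6.06 counts in control siRNA replicate 1. In the fit over that wider set of 198 miRNAs the difference in log2(signal + 1) was 1.34 ± 0.73 (SE; 95% interval -0.40 to 3.08; limma adjusted p = 0.346). Without siPRKRA replicate 2 it was 2.16 at a limma adjusted p of 0.0054, in a fit that called 70 of the 198 (35.4%), 40 of them higher (20.2%). Both the floor and the pseudocount set the size of this difference: with a pseudocount of 30 in place of 1 it was 0.22 over all 6 libraries (limma adjusted p = 0.318). miR-31-5p entered the wider set only through siPRKRA replicates 1 and 3, and its control values are the floors of their libraries. Its p-values therefore do not measure scatter of miR-31-5p among control libraries. The call without siPRKRA replicate 2 cannot decide whether miR-31-5p changed.

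**Figure D3:**
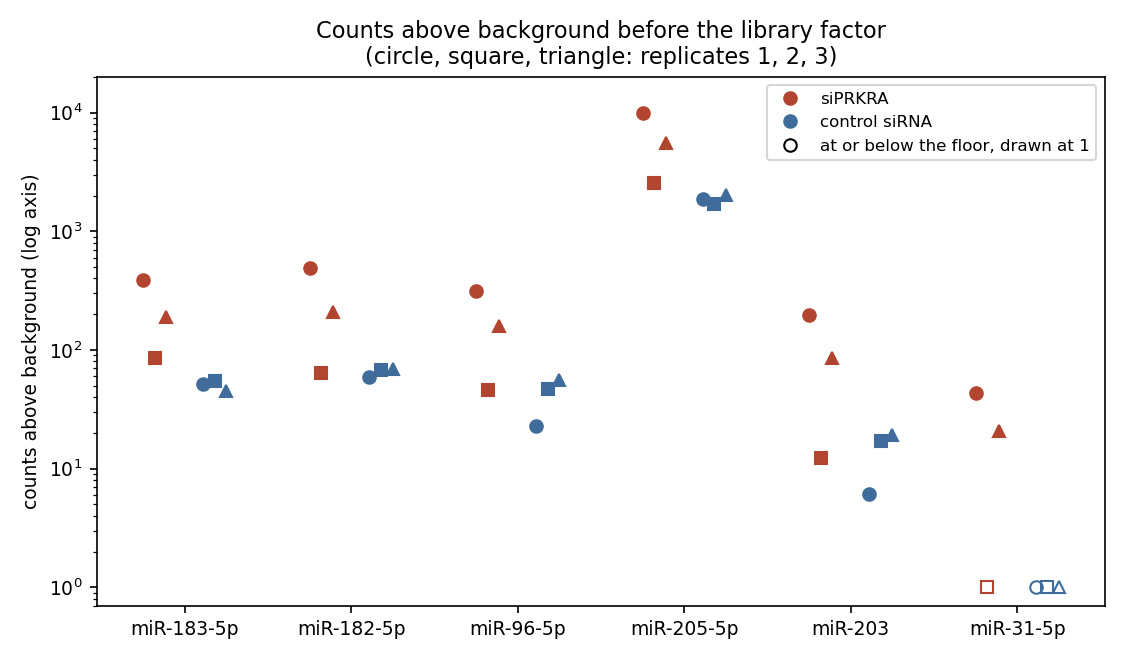
Counts above background before the library factor (vertical axis, log scale) for each member, with siPRKRA libraries to the left of control siRNA libraries and open symbols drawn at 1 for values at or below the floor. In siPRKRA replicates 1 and 3 every member has more counts than in any control siRNA library, for miR-203 for example 197 and 84.9 against 6.06 to 19.4. The same holds for the counts summed over all miRNA rows, at 307972 and 144034 against 52317 to 56864.5, so it is not particular to the members.

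The counts before the factor, which are not comparable as levels, show how far the comparison rests on the scaling. For miR-183-5p they were 390, 85.2 and 188 in siPRKRA libraries, against 52.1, 55.1 and 45.4 in control siRNA libraries. In siPRKRA replicate 2, whose factor was nearest to those of the control libraries, miR-182-5p had 64.2 counts above background, against 59.1 to 69.4 in control siRNA libraries. miR-96-5p (46.2 against 23.1 to 55.4) and miR-203 (12.2 against 6.06 to 19.4) also lay within the control range. Above it lay miR-183-5p and miR-205-5p (2529 against 1690 to 2028). Summed over all miRNA rows, that library held 229183 counts, against 52317 to 56864.5 in control siRNA libraries. When the deposited factors were replaced by ones from the 5 graded control probes (control rows above 100 in every library), miR-183-5p had a log2 fold change of 1.95 (limma adjusted p = 0.0458), and 22 of the 106 (20.8%) were called. Under it the 106 miRNAs had a median of 1.61, and miR-183-5p lay 0.34 above this median. With values scaled by the 5 mRNA rows the log2 fold change of miR-183-5p was -0.25 (limma adjusted p = 0.740), and the median of all tested miRNAs was -0.62. miR-183-5p then lay 0.37 above it, against 0.36 in the deposited scaling. Changing a library's factor moves every miRNA in it by about the same amount, so the likeness of these distances was fixed by the arithmetic.

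**Figure D4:**
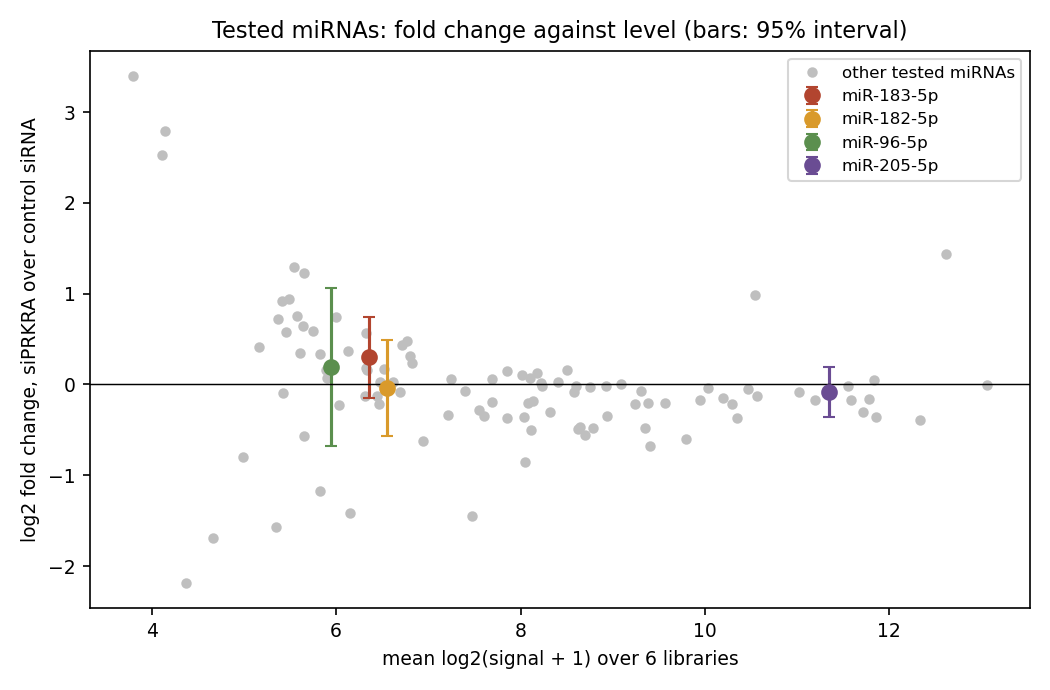
log2 fold change of siPRKRA over control siRNA (vertical axis) against the mean log2(signal + 1) over 6 libraries (horizontal axis) for the 106 tested miRNAs, with the 4 tested members in colour and bars for their 95% intervals. All 4 intervals include 0, the narrowest is that of miR-205-5p (-0.35 to 0.19) and the widest that of miR-96-5p (-0.68 to 1.06).

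**Figure D5:**
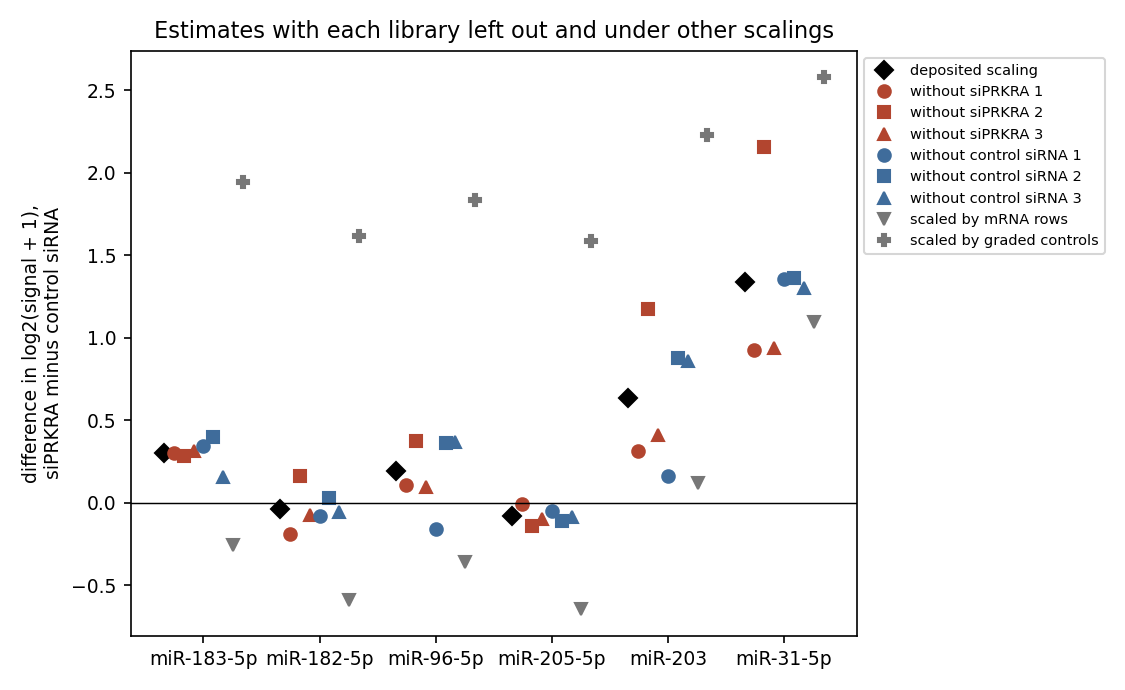
Difference in log2(signal + 1) between siPRKRA and control siRNA for each member (vertical axis) in the deposited scaling, with each library left out in turn, and under scaling by the 5 mRNA rows or the 5 graded control probes. The estimates of miR-205-5p with a library left out lie between -0.14 and -0.0077, and those of miR-31-5p, which depend on the floor and the pseudocount and are no fold, between 0.92 and 2.16.

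In the authors' deposited table none of the 6 members passed, where 2 of 177 miRNAs (1.13%) had an adjusted p under 0.05. The authors' deposited table gives miR-183-5p a log2 level of 6.50 in siPRKRA and 6.19 in control siRNA with an adjusted p of 0.542. For miR-31-5p the authors' deposited table gives log2 levels of 3.29 in siPRKRA and 0.58 in control siRNA, a rank-test p of 0.7 and a Fold_Change of 5.63. That last number is the ratio of the log2 levels, not of linear levels. The log2 levels of miR-31-5p match the middle value of each group, 9.80 in siPRKRA and 1.50 in control siRNA. Those of miR-183-5p match means of log2 values, so the levels of these miRNAs are unlike measures.

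The members were set beside other marker miRNAs, in lists for epithelial, mesenchymal, blood and immune, and endothelial cells. Of 14 further epithelial miRNA names listed 8 were named in the files and 3 were tested, 0 of which were called. Of the 3, 2 (miR-200c-3p and miR-141-3p) had an unadjusted p under 0.05 and values that did not overlap between the groups, both lower in siPRKRA, where 16% and 27.4% of all tested miRNAs met these criteria. miR-200c-3p, which also represses ZEB1 and ZEB2, averaged 4529 ± 459 in siPRKRA and 5927 ± 511 in control siRNA libraries (SD, n = 3 each; limma adjusted p = 0.265). miR-141-3p, from the same transcript, averaged 344 ± 67.0 in siPRKRA and 470 ± 55.2 in control siRNA libraries (SD, n = 3 each; limma adjusted p = 0.265), and miR-200b-3p averaged 81.5 ± 27.5 in siPRKRA and 61.5 ± 11.9 in control siRNA libraries (SD, n = 3 each; limma adjusted p = 0.489). The summed signal of the 8 was 4338 to 5436 in siPRKRA and 5892 to 6991 in control siRNA libraries. This sum was carried by miR-200c-3p, so it does not describe the 8 as a set. Of the 3 tested, 1 had a higher and 2 a lower estimate in siPRKRA. The part of the sum in the members' values was not tested. Like miR-31-5p, 4 of the 8 were at the floor in all control libraries, as were 1 of the 5 mesenchymal and 1 of the 3 blood and immune miRNAs that the files name. Among all 800 miRNA rows, 125 to 130 were above the floor in each control siRNA library and 165 to 174 in each siPRKRA library. A value at the floor in control libraries is therefore not particular to these miRNAs.

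Of 14 names listed as mesenchymal 5 were named and 3 tested, with 0 called, and their sum was 4867 to 5445 in siPRKRA and 4990 to 5337 in control siRNA libraries. Its largest part was miR-125b-5p (3722 ± 152 in siPRKRA and 3589 ± 124 in control siRNA libraries, SD, n = 3 each), which many epithelial lines also make. miR-100-5p averaged 1121 ± 164 in siPRKRA and 1237 ± 81.3 in control siRNA libraries (SD, n = 3 each). For miR-22-3p the means were 282 ± 46.3 and 268 ± 25.7 (SD, n = 3 each). Of these 3, 2 had a higher and 1 a lower estimate in siPRKRA. Of 10 blood and immune miRNAs 3 were named and 1 tested, with a sum of 17.6 to 61.0 in siPRKRA and 18.1 to 237 in control siRNA libraries. The tested one, miR-144-3p, had 1.09 to 39.4 in siPRKRA and 6.07 to 151 in control siRNA libraries (limma adjusted p = 0.425). Endothelial miR-126-3p had 161 to 216 in siPRKRA and 214 to 229 in control siRNA libraries, and was not called.

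The tested miRNAs whose pattern over the 6 libraries was most like that of a member were picked by Pearson's r of log2(signal + 1), as a description of 6 libraries that share their scaling. For miR-183-5p these were miR-28-3p (0.956), the shared probe of miR-378a-3p and miR-378i (0.834) and miR-185-5p (0.821). For miR-182-5p they were miR-30c-5p (0.968), miR-19a-3p (0.880) and miR-15a-5p (0.871). For miR-96-5p they were miR-331-3p (0.826), miR-200b-3p (0.754) and miR-151a-3p (0.674), and for miR-205-5p they were miR-4516 (0.875), miR-10a-5p (0.823) and miR-197-3p (0.819). No cluster miRNA was among the 3 most alike of another cluster miRNA. The correlations between the cluster miRNAs are not given here, so this does not show whether they varied together.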

How the data were processed

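The nCounter miRNA assay was run on total RNA of 3 siPRKRA and 3 control siRNA libraries, per the labels' protocols. The signal table deposited by the authors has 822 rows (800 miRNA, 5 mRNA and 12 control rows, and 5 further miRNA accessions). Its values matched counts above a background times 1 factor per library: after division by the recovered factor, 100% of values up to 3000 were whole within 0.1 of the library's decimal part. Raw counts and the background amount are unknown, so no counting interval is given. A second table deposited by the authors is the log2 of that signal for the miRNA rows. The comparison table deposited by the authors gives a p-value, an adjusted p-value and a score called Fold_Change for 177 miRNAs, and names came from it. How the background was set, which probes gave the factors and which software was used is not given in the sources used here.

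A model with group as the only term was fitted with limma 3.58.1 (R 4.3.3; lmFit and trended eBayes) to log2(signal + 1) over miRNAs with a signal of at least 30 in at least 3 libraries. The 2 members under that filter were fitted over all rows above the floor in at least 1 library. The fit was tested on simulated data. Ratios were compared by exact permutation tests. Other scalings, filters, pseudocounts, limma-voom, a replicate block and leaving out each library were tried. Every member is named, with up to 3 markers per list by highest mean, the 3 miRNAs most alike to each tested member and any that share a seed. The members and lists were chosen with earlier results of these data known. Other steps used scipy 1.17.1, pandas 2.3.3, numpy 2.4.6 and matplotlib 3.10.9 in Python 3.11.15. Mature and hairpin sequences are from RefSeq, GRCh38.p14.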

Additional observations from a re-analysis of the deposited data

How the results depend on the processing

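All 6 members stayed uncalled in limma under every alternative, with these exceptions. miR-183-5p was called when scaled by the graded control probes (log2 fold change 1.95). miR-31-5p was called without siPRKRA replicate 2 (a difference in log2(signal + 1) of 2.16), where all its control values were at the floor. The count of called miRNAs, 0, became 635 with no filter, 22 with the graded control probes, 3 with a pseudocount of 30, 1 with the 5 mRNA rows and 1 with no variance trend, and was 0 to 4 with a library left out (4 without siPRKRA replicate 2 and 2 without control siRNA replicate 3). With no filter most of the 800 rows tested sat at the floor, which differs between libraries. Signs turned with the scaling. The summed miRNA signal was 248762 in siPRKRA replicate 2 and 67599 to 80483 in the other libraries. The 5 mRNA rows averaged 4440 in siPRKRA replicate 2 and 1563 to 2089 in the others. As a percent of the summed miRNA signal, miR-183-5p was at 0.127, 0.037 and 0.130 in siPRKRA libraries. In control siRNA libraries it was at 0.097, 0.105 and 0.080. By the 100 highest miRNAs, the miRNA total and the 5 mRNA rows the log2 fold changes were -0.13, -0.13 and -0.25 for miR-183-5p and -0.23, -0.23 and -0.36 for miR-96-5p. By the graded control probes they were 1.62 for miR-182-5p and 1.59 for miR-205-5p. miR-182-5p was at 0.014 with median-of-ratios scaling and 0.074 in limma-voom. With a library left out the range was 0.16 to 0.40 for miR-183-5p, -0.19 to 0.16 for miR-182-5p, -0.16 to 0.37 for miR-96-5p, 0.16 to 1.17 for miR-203 and, as a difference in log2(signal + 1), 0.92 to 2.16 for miR-31-5p. For the log2 ratios within the cluster it was 0.12 to 0.49 for miR-183-5p over miR-182-5p, -0.22 to 0.51 for miR-183-5p over miR-96-5p and -0.43 to 0.082 for miR-182-5p over miR-96-5p. The cause of these turns was not tested. The ratio of group means, siPRKRA over control siRNA, was 1.22 for miR-183-5p, 0.994 for miR-182-5p, 1.10 for miR-96-5p, 0.947 for miR-205-5p and 1.63 for miR-203 in deposited signal. In counts before the factor these ratios were 4.35, 3.90, 4.15, 3.21 and 6.92, and relative to the 5 mRNA rows they were 0.879, 0.771, 0.845, 0.677 and 1.35.

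The labels share replicate numbers but do not say whether same-numbered libraries were handled together. Same-numbered libraries deviated from their group means with correlations of 0.17, -0.088 and -0.073. For differently numbered libraries these correlations ran from -0.20 to 0.27, so the check cannot decide whether the libraries were paired. With the replicate block 0 miRNAs were called and miR-183-5p had a log2 fold change of 0.30 (limma adjusted p = 0.452), and no member's call changed. At a signal of at least 100 in 3 libraries only miR-205-5p of the members was left, at -0.08. Control libraries held 6.06 to 19.4 counts above background for miR-203 and none above the floor for miR-31-5p.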
